A study of Mus musculus with 6 samples.

Results

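The 33 genes described here encode the machinery that makes cholesterol, senses it and moves it out of the cell. They were chosen by symbol, with earlier results of these data known. All 33 are listed among the 16000 genes of the deposited count table. They comprise 19 enzymes of cholesterol synthesis, 6 genes that control the sterol-sensing transcription factor SREBP, 6 genes of the LXR receptors and of cholesterol efflux, and 2 genes of sterol movement and storage. RNA was sequenced from NIH3T3 cells, an established mouse fibroblast line, after serum starvation. The groups were 3 libraries with the genotype Rai16 KO and 3 libraries with the genotype WT, and both groups were starved. The labels give neither the lesion nor the number of clones or cultures behind each group, so the p-values cover the spread among these libraries, and that spread may be technical.

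Cholesterol is built from acetyl-CoA in the mevalonate pathway, which also yields the prenyl groups that anchor proteins to membranes, and then through squalene and a series of sterols. When sterol in the endoplasmic reticulum is scarce, SCAP carries SREBP to the Golgi, where 2 proteases free its transcription factor domain, which turns on most of the synthesis genes. INSIG proteins hold SCAP back when sterol is plentiful, and the LXR receptors, activated by oxysterols, turn on genes of efflux such as Abca1. Cultured fibroblasts take cholesterol from serum lipoproteins and rely on their own synthesis when these are withdrawn.

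Total counts ran from 17805417 to 18368760 in the knockout libraries and from 16741607 to 17482451 in the wild-type libraries. The targeted gene, listed as Fam160b2, had 410, 394 and 390 counts in knockout replicates 1, 2 and 3, against 440, 375 and 411 in wild-type replicates 1, 2 and 3. Its transcript did not pass the test (log2 fold change −0.12 ± 0.0747 (SE), adjusted p = 0.184), and a count over the whole gene says nothing of a short indel. All 12 fibroblast markers had a mean of at least 1 FPKM over the libraries, and their summed FPKM was 6640 to 6909 in knockout and 6188 to 6326 in wild type. The sum hides changes in both directions. Col3a1 fell by 1.64 and Fn1 by 0.60 on the log2 scale, while Thy1 rose by 0.90 and Col1a1 by 0.65. Sums over the markers of other cell types were low but differed between groups. Epithelial markers summed to 2.50 to 3.20 FPKM in knockout and 0.966 to 1.18 FPKM in wild type, and leukocyte markers to 4.16 to 4.73 FPKM in knockout and 2.80 to 3.10 FPKM in wild type. Endothelial markers summed to 0.578 to 1.48 FPKM in knockout and 0.106 to 0.223 FPKM in wild type, and neural markers to 1.36 to 1.94 FPKM in knockout and 2.82 to 3.18 FPKM in wild type. No listed marker found in the table was at 0 in all 6 libraries, and the part of these levels in the results was not tested. Knockout replicate 2 stood apart. Its counts differed from those of knockout replicates 1 and 3 by a chi-square of 28.6 and 26.5 per degree of freedom, against 1.72 between replicates 1 and 3 and 1.90 to 2.25 between wild-type pairs. It also held 405 counts of the muscle creatine kinase gene Ckm, which had 0 counts in the other 5 libraries, and the 5 listed muscle markers found in the table summed to 0.0733 to 17.3 FPKM in knockout libraries and 0.202 to 0.303 FPKM in wild type. The part of this RNA in the results was not tested. Values without this library are given for the counts of synthesis, control, LXR and efflux, storage and further sterol genes, and for members whose call changed or whose log2 fold change moved most.

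Transcripts of nearly every cholesterol synthesis enzyme were higher in knockout cells. Of the 19 enzymes, all of which passed the filter on low counts, 17 rose, 1 fell and 1 did not pass the test. Over all 11972 genes tested 30.5% were called higher and 29.2% lower (edgeR's quasi-likelihood test, Benjamini-Hochberg adjusted p under 0.05). The median log2 fold change of the enzymes was 0.80, against 0.0028 over all genes tested. At least 2-fold rises were found for 7 of the 19, a size that 4.32% of all genes reached. Without knockout replicate 2 the counts were 18 higher and 1 lower. Calls over all genes then went up too, from 3646 to 4350 higher and from 3490 to 4236 lower. The fall was that of Ggps1, which makes the geranylgeranyl donor for proteins and lies on a side branch of the path to cholesterol. RNA from whole cultures cannot tell fewer expressing cells from less RNA per cell.

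**Figure D1:**
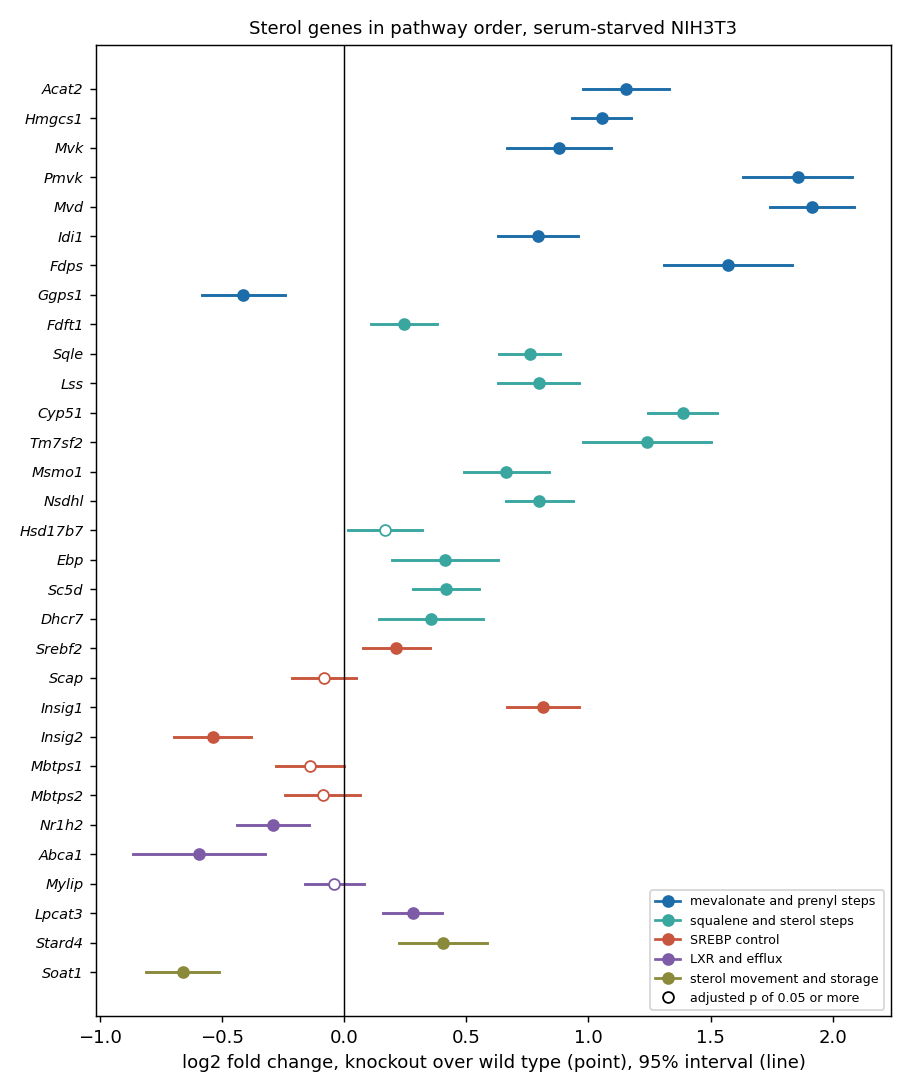
Log2 fold change, knockout over wild type, of the 31 genes that could be tested, listed in pathway order; points are edgeR estimates, lines 95% intervals, colours the roles, and open points have an adjusted p of 0.05 or more. Synthesis genes lie right of 0 except Ggps1 (−0.41). Of the other roles, the called genes Insig2 (−0.54), Nr1h2 (−0.29), Abca1 (−0.59) and Soat1 (−0.66) lie left of it. Scap, Mbtps1, Mbtps2 and Mylip, which did not pass the test, also lie left of 0.

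The DNA just before the transcription start is shown for a few of these genes, to set the promoters of genes that rose (Hmgcs1, Mvd, Cyp51, Msmo1, Insig1) beside those of genes that fell (Insig2, Abca1). These genes were chosen after their values were seen. The sequences are from RefSeq on build GRCm38.p6, whereas the submitters' processing notes name GRCm39 for the reads. Each covers the last 160 bases before the start, 5′ to 3′ on the gene's strand. Capitals mark the core of the sterol regulatory element (TCACNCCAC), the CCAAT box that binds NF-Y, a partner of SREBP (CCAAT, or ATTGG on the other strand), and the E-box CACGTG. For Insig2 the first of 3 windows in the table is shown.
Hmgcs1: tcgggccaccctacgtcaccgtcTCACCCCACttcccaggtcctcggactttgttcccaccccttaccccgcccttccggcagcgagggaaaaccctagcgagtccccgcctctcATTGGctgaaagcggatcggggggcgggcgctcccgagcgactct
Mvd: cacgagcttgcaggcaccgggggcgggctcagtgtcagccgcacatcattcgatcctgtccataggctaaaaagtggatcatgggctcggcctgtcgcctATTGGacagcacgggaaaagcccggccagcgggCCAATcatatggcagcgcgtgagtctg
Cyp51: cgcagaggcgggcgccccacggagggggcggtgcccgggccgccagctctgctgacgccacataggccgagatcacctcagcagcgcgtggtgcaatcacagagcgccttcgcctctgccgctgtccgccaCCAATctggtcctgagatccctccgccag
Msmo1: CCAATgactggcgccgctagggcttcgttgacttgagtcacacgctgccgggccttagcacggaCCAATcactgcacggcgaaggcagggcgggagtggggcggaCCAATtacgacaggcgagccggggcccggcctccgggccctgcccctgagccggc
Insig1: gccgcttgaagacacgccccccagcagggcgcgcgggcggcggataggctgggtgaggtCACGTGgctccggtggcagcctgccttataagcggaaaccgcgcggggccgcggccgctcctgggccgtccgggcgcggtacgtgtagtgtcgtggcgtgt
Insig2: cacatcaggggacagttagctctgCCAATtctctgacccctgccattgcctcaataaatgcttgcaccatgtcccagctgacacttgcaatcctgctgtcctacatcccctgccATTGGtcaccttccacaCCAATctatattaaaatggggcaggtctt
Abca1: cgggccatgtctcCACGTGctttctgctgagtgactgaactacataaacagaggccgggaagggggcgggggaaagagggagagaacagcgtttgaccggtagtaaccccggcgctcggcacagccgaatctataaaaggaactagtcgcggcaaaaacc

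The windows lie at chr13:119690191-119690350 on the plus strand for Hmgcs1, chr8:122443423-122443582 on the minus strand for Mvd, chr5:4104698-4104857 on the minus strand for Cyp51 and chr8:64733579-64733738 on the minus strand for Msmo1. Those of Insig1, Insig2 and Abca1 lie at chr5:28071252-28071411 (plus), chr1:121332590-121332749 (minus) and chr4:53159896-53160055 (minus). Motifs were searched on both strands from 250 bases before to 50 bases after each start, in any window of a gene, and 28 of the 33 genes had a window in the table. The CCAAT box was found in 15 of 16 synthesis genes with a window (93.8%), against 43.9% of the 9551 tested genes with a window and 41.1% of all 27025 genes of the table. Of the 14 enzymes called higher that had a window, 13 held it (92.9%). It was found in 3 of 6 control genes and 2 of 5 LXR and efflux genes. The Insig2 stretch above, from the first of 3 windows, held 3 copies, and those of Insig1 and Abca1 held 0. Insig1 is among the control genes with a CCAAT box, as it held one outside the stretch shown, 216 bases before its start. Of the genes that fell, Ggps1, Insig2 and Soat1 held it, and Nr1h2 and Abca1 did not. The exact core of the sterol regulatory element was found in Hmgcs1 alone, which is 6.25% of the 16, against 1.33% of tested genes and 1.44% of all genes of the table. With 1 mismatch allowed, a search added after the data were seen, it was found in 7 of 16 (43.8%), against 28.8% of tested genes and 26.7% of all. The GC box GGGCGG was found in 14 of 16 (87.5%), against 69.2% of tested genes and 38.2% of all. The E-box was found in 3 of 16 (18.8%), against 11.7% of tested genes and 8.09% of all. The direct repeat bound by LXR (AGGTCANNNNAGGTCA) was found in 0 of the 28, 0 of the tested genes and 0.0148% of all genes. These exact letters matched only 4 of the 27025 genes, so the 0 among members was close to fixed in advance. Variants of the repeat were not searched or marked, so it cannot be said whether Abca1 or other members hold one. A match is a description of letters, and a missing match says only that these letters are not in this window.

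The strongest rises among the 19 enzymes were those of Mvd, Pmvk and Fdps in the mevalonate part of the pathway. Of the 8 mevalonate and prenyl genes 7 rose, 5 of them at least 2-fold, and 1 fell, against 30.5% higher and 29.2% lower over all genes. Levels are given as CPM, read counts relative to a library total adjusted by TMM. Mvd, the decarboxylase that makes isopentenyl diphosphate, had 74.1, 83.9 and 79.2 CPM in knockout replicates 1, 2 and 3, against 21.1, 19.5 and 22.2 CPM in wild type. The groups lay far apart, and the rise was 1.92 ± 0.076 on the log2 scale (SE; adjusted p = 1.76e-07). Pmvk, the phosphomevalonate kinase of the preceding step, had 36.5, 40.2 and 34.7 CPM in knockout, against 11.5, 9.53 and 9.71 CPM in wild type. Its log2 fold change was 1.86 ± 0.0984 (adjusted p = 8.83e-07), and 1.65% of all genes tested had a higher one.

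Fdps makes farnesyl diphosphate, the branch point between sterols and prenyl groups. It had 282, 380 and 284 CPM in knockout replicates 1, 2 and 3, against 111, 99.8 and 108 CPM in wild type. Replicate 2 was the highest knockout library, and the log2 fold change of 1.57 ± 0.116 (adjusted p = 6.48e-06) became 1.42 without it. Acat2, the thiolase of the first step, had 165, 170 and 166 CPM in knockout and 80.6, 66.7 and 78.2 CPM in wild type (log2 fold change 1.15 ± 0.0768, adjusted p = 3.5e-06). Hmgcs1, the HMG-CoA synthase whose promoter holds the exact core, had 299, 295 and 307 CPM in knockout and 144, 141 and 148 CPM in wild type (1.05 ± 0.0539, adjusted p = 7.55e-07). These 3 genes showed no overlap between groups.

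Mvk, the mevalonate kinase, and Idi1, the isomerase of isopentenyl diphosphate, rose by less than 2-fold. Mvk averaged 34.5 ± 3.64 CPM in knockout and 18.7 ± 1.05 CPM in wild type (SD, n = 3 each), which is 0.88 ± 0.0933 as a log2 fold change. Idi1 averaged 47.5 ± 1.95 CPM in knockout and 27.3 ± 1.87 CPM in wild type, a log2 fold change of 0.80 ± 0.0722. Ggps1, in contrast, had 25.8, 23.0 and 24.8 CPM in knockout, against 32.1, 34.7 and 31.3 CPM in wild type. Every knockout library lay below every wild-type library (log2 fold change −0.41 ± 0.0753, adjusted p = 0.00137). As a ratio of FPKM within a library, Fdps over Ggps1 was 43.6, 65.9 and 45.7 in knockout replicates 1, 2 and 3, against 13.8, 11.5 and 13.8 in wild type.

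From squalene onwards 10 of 11 genes rose and 0 fell, against 30.5% higher and 29.2% lower over all genes. Their median log2 fold change was 0.66, and 0.59 without knockout replicate 2. Cyp51, the lanosterol demethylase, had 439, 465 and 446 CPM in knockout replicates 1, 2 and 3, against 169, 164 and 183 CPM in wild type. Its log2 fold change of 1.39 ± 0.0622 (adjusted p = 3.44e-07) was the largest of the sterol steps. Tm7sf2, a sterol reductase that acts on the product of Cyp51, had 21.1, 27.6 and 23.2 CPM in knockout and 10.8, 9.59 and 9.996 CPM in wild type (1.24 ± 0.116, adjusted p = 2.69e-05). For both genes every knockout library lay above every wild-type library.

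Another 4 genes of the sterol path rose by similar amounts, less than Cyp51 and Tm7sf2. The log2 fold changes were 0.76 ± 0.0551 for the squalene epoxidase gene Sqle, 0.80 ± 0.0731 for the lanosterol synthase gene Lss, 0.80 ± 0.0604 for the sterol dehydrogenase gene Nsdhl and 0.66 ± 0.0771 for the methylsterol oxidase gene Msmo1. Sqle averaged 246 ± 5.77 CPM in knockout and 145 ± 4.43 CPM in wild type, and Lss 126 ± 3.12 CPM in knockout and 72.5 ± 6.61 CPM in wild type. Every knockout library lay above every wild-type library for each of these genes. Nsdhl averaged 120 ± 4.96 CPM in knockout and 68.8 ± 2.71 CPM in wild type. Msmo1 averaged 226 ± 19.9 CPM in knockout and 143 ± 8.05 CPM in wild type. Adjusted p for these 4 genes ran from 5.75e-06 to 9.73e-05.

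Among the called genes of the sterol path, the smallest rises were at its entry and its end. Fdft1, the squalene synthase, had 121, 132 and 121 CPM in knockout, against 105, 103 and 108 CPM in wild type (log2 fold change 0.24 ± 0.0599, adjusted p = 0.00661). In the GENCODE M21 annotation 20.9% of its exon bases overlap Ctsb on the other strand. Ctsb fell by 0.56 on the log2 scale and had 83046 counts over the 6 libraries, against 12217 for Fdft1, and the strand setting of the counting is unknown here, so reads of the pair cannot be told apart. The sterol isomerase gene Ebp, the desaturase gene Sc5d and the dehydrocholesterol reductase gene Dhcr7 rose by 0.41 ± 0.0965, 0.42 ± 0.059 and 0.36 ± 0.0934, with adjusted p from 0.000309 to 0.0093. Hsd17b7, a ketosteroid reductase, had 42.1, 37.1 and 40.4 CPM in knockout and 34.9, 35.8 and 35.7 CPM in wild type. These groups did not overlap, but the log2 fold change of 0.17 ± 0.0675 did not pass (adjusted p = 0.0579). Without knockout replicate 2 it was 0.22 and passed (adjusted p = 0.00162).

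**Figure D2:**
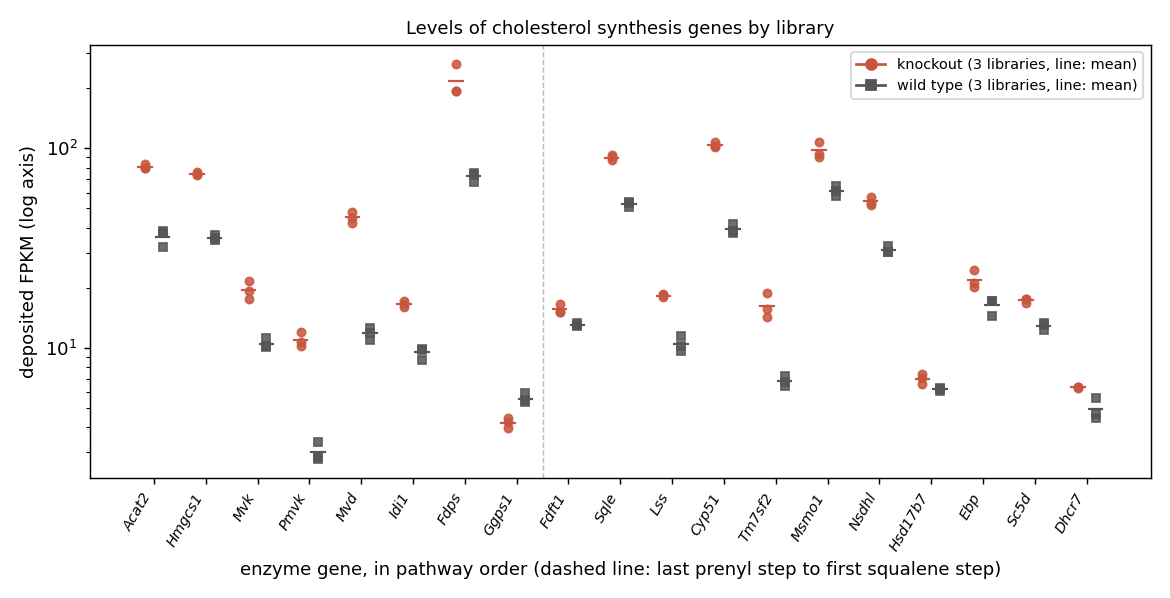
Deposited FPKM on a log axis for the 19 synthesis genes in pathway order; each point is a library (circles knockout, squares wild type) and each line a group mean. All genes but Ggps1 have their 3 knockout points above their 3 wild-type points, and Fdps is the most abundant in both groups (217 and 72.4 FPKM).

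Compared per length, in FPKM, the steps differed widely in level. Fdps was the most abundant of the 19 (217 ± 39.9 FPKM in knockout, 72.4 ± 3.84 FPKM in wild type). The least abundant was Ggps1 in knockout (4.23 ± 0.227 FPKM) and Pmvk in wild type (3.004 ± 0.318 FPKM). Pmvk averaged 10.98 ± 0.894 FPKM in knockout. Summed over the 19 genes the level was 876, 994 and 880 FPKM in knockout replicates 1, 2 and 3, against 442, 421 and 454 FPKM in wild type. CPM of the groups did not overlap for 18 genes that were higher and 1 that was lower in knockout, where 34.1% and 33.5% of all genes tested did so. Of the 3 knockout libraries, replicate 2 was the highest for 12 of the 19 genes and the lowest for 6.

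The SREBP control genes did not move together. Of 6 genes 2 rose, 1 fell and 3 did not pass, which is 33.3% higher and 16.7% lower, against 30.5% and 29.2% of all genes. The median log2 fold change was −0.09, and −0.04 without knockout replicate 2. Insig1, which holds SCAP in the endoplasmic reticulum and is itself a target of SREBP, had 147, 141 and 146 CPM in knockout replicates 1, 2 and 3, against 80.7, 77.9 and 88.7 CPM in wild type. Its log2 fold change of 0.81 ± 0.0649 (adjusted p = 1.04e-05) lay within its error of the median of the synthesis genes. Its relative Insig2 had 41.6, 38.0 and 42.4 CPM in knockout, against 59.1, 55.9 and 62.2 CPM in wild type. It fell by 0.54 on the log2 scale (SE 0.0689, adjusted p = 0.000174), so these 2 genes of like function moved in opposite directions. The ratio of their FPKM, Insig1 over Insig2, was 9.25 ± 0.346 in knockout and 3.62 ± 0.0795 in wild type (SD, n = 3 each).

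Srebf2, which encodes the SREBP form that drives cholesterol synthesis, had 357, 326 and 359 CPM in knockout, against 290, 303 and 306 CPM in wild type. The groups did not overlap, and the rise of 0.21 ± 0.0608 was small (adjusted p = 0.0139). It did not pass without knockout replicate 3 (0.19, adjusted p = 0.0539) or without wild-type replicate 1 (0.19, adjusted p = 0.0721). The escort gene Scap had 115, 107 and 113 CPM in knockout and 116, 116 and 122 CPM in wild type, with a log2 fold change of −0.08 and a 95% interval from −0.21 to 0.05 (adjusted p = 0.243). The proteases that free SREBP did not pass the test either. Mbtps1, the site-1 protease, had 253, 232 and 261 CPM in knockout and 272, 279 and 270 CPM in wild type (−0.14 ± 0.0613, adjusted p = 0.0773). Without knockout replicate 2 it was −0.09 and passed (adjusted p = 0.01), which made 2 falls among the 6. Mbtps2, the site-2 protease, had 51.9, 45.8 and 51.7 CPM in knockout and 53.7, 53.6 and 51.5 CPM in wild type (−0.09 ± 0.067, adjusted p = 0.284). Yy2 overlaps 36.1% of the exon bases of Mbtps2 on the same strand, and its reads may be shared.

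The efflux pump Abca1 and the receptor gene Nr1h2 were lower in knockout. Of 6 LXR and efflux genes 4 could be tested, of which 1 rose, 2 fell and 1 did not pass, with or without knockout replicate 2. Set against the 30.5% higher and 29.2% lower of all genes, a count over 4 genes does not set this group apart. Abca1, the pump that loads cholesterol onto apolipoproteins and an LXR target, had 45.0, 31.7 and 44.0 CPM in knockout replicates 1, 2 and 3, against 60.2, 63.2 and 58.8 CPM in wild type. Replicate 2 was the lowest knockout library, and all 3 lay below wild type. The log2 fold change was −0.59 ± 0.12 (adjusted p = 0.00236), and −0.45 without replicate 2. As a ratio of FPKM, Hmgcs1 over Abca1 was 17.1, 24.0 and 18.05 in knockout replicates 1, 2 and 3, against 6.20, 5.77 and 6.51 in wild type.

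The other pump, Abcg1, had 1 count in knockout replicate 2 and 0 in the remaining 5 libraries, where a count of 0 allows up to 0.163 to 0.18 CPM. The receptor gene Nr1h3 (LXR alpha) was also near the limit of detection, with 3, 4 and 6 counts in knockout and 2, 10 and 6 in wild type. Nr1h2 (LXR beta) was the more abundant LXR form, at 42.5 FPKM in knockout and 51.6 FPKM in wild type, against 0.109 and 0.159 FPKM for Nr1h3. It had 83.3, 92.2 and 81.6 CPM in knockout, against 106, 107 and 101 CPM in wild type, a log2 fold change of −0.29 ± 0.0649 (adjusted p = 0.00425).

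Mylip and Lpcat3, also LXR targets, changed little. Mylip, a ubiquitin ligase that marks lipoprotein receptors for degradation, had 109, 105 and 108 CPM in knockout and 111, 112 and 109 CPM in wild type. Its groups overlapped and its log2 fold change of −0.04 had a 95% interval from −0.16 to 0.08 (adjusted p = 0.536). Lpcat3, which remodels membrane phospholipids, had 58.8, 58.2 and 58.9 CPM in knockout and 48.3, 48.7 and 47.8 CPM in wild type. It rose by 0.28 ± 0.0529 (adjusted p = 0.00161), a small change with narrow spread in both groups.

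**Figure D3:**
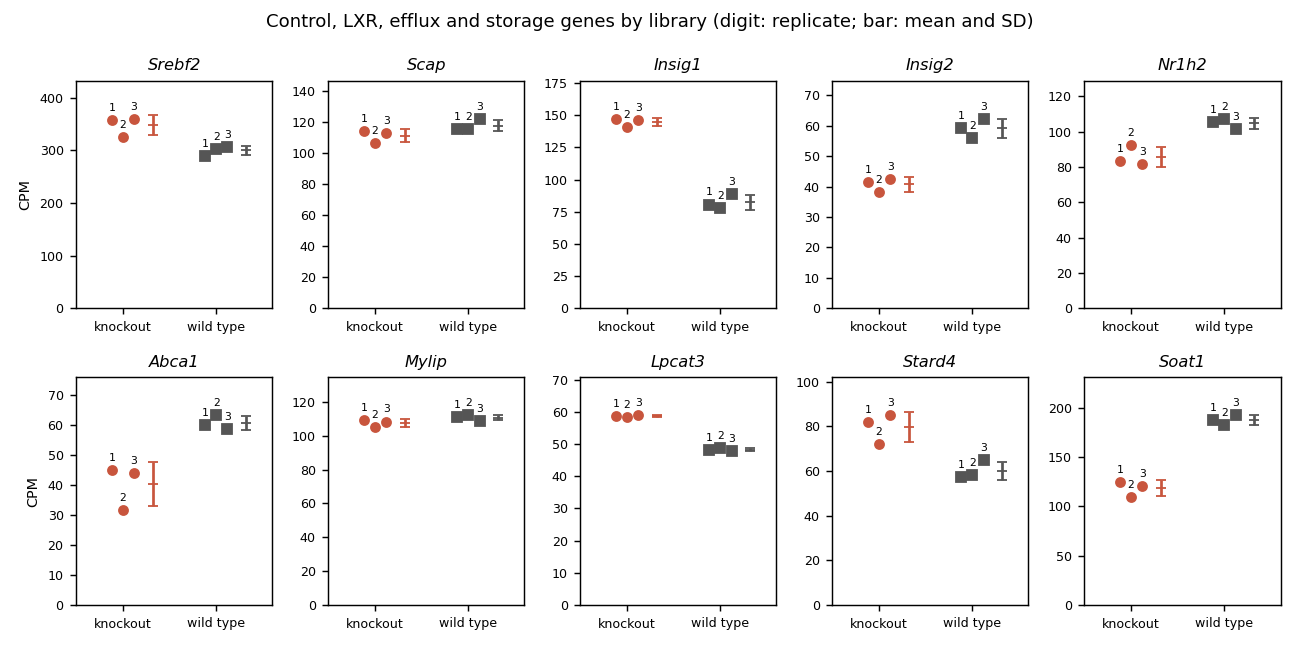
CPM of 10 control, LXR, efflux, movement and storage genes in each library (circles knockout, squares wild type, digits the replicate), with the mean and SD of 3 libraries beside them and axes from 0. Insig1 and Insig2 moved in opposite directions (0.81 and −0.54 on the log2 scale), and knockout replicate 2 is the lowest library for Abca1 (31.7 CPM).

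Of the 2 genes of sterol movement and storage 1 rose and 1 fell, with or without knockout replicate 2. Over all genes 30.5% were called higher and 29.2% lower, so a count over 2 genes does not set this pair apart. Stard4, a carrier of sterol between membranes, had 82.1, 72.0 and 84.9 CPM in knockout, against 57.5, 58.3 and 64.8 CPM in wild type, and rose by 0.40 ± 0.0797 (adjusted p = 0.00209). Soat1, which esterifies cholesterol for storage, had 125, 110 and 121 CPM in knockout, against 187, 183 and 192 CPM in wild type. It fell by 0.66 on the log2 scale (SE 0.0653, adjusted p = 3.62e-05), the largest fall among the 31 genes tested. Neither gene's groups overlapped, as was so for 34.1% (higher in knockout) and 33.5% (lower) of all genes tested.

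Each member was set beside up to 10 tested genes on either side of it in the RefSeq order of GRCm38.p6. All 19 synthesis genes lay above the median of their neighbours, by 0.11 (Dhcr7) to 1.71 (Hmgcs1) on the log2 scale, and 17 of them by more than 0.3. The neighbours of Hmgcs1 had a median log2 fold change of −0.65, those of Idi1 −0.50, those of Insig1 −0.41 and those of Mvd 0.42. Thus Hmgcs1, Idi1 and Insig1 rose in stretches where most called neighbours fell. Mvd rose in a stretch where 12 of 20 neighbours were called higher, against 30.5% of all genes.

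Most of the genes that fell lay close to a median of their neighbours that was itself below 0. Over all genes tested 29.2% were called lower. The neighbours of Soat1 had a median of −0.59, with 19 of 20 called lower, and those of Ggps1 had a median of −0.59, with 13 of 20 called lower. For Insig2 the median was −0.45, with 13 of 20 called lower, and for Nr1h2 −0.30, with 9 of 20 called lower. These 4 genes differed from their neighbours' median by −0.09 to 0.17. Abca1 lay 0.52 below the median of its neighbours (−0.07). Mylip, whose own change did not pass, lay 0.60 above neighbours of which 16 of 20 were called lower. Differences from neighbours were not tested.

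**Figure D4:**
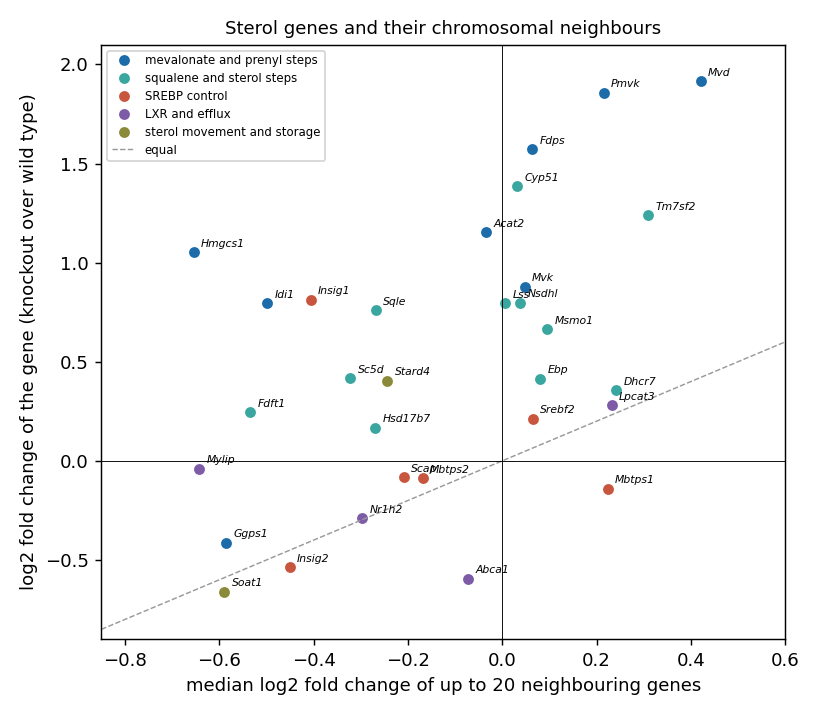
Log2 fold change of each of the 31 tested genes (vertical axis) against the median log2 fold change of up to 20 neighbouring genes (horizontal axis), coloured by role; the dashed line marks equal values. Synthesis genes lie above the line, Insig2, Soat1, Nr1h2 and Ggps1 lie near it at the lower left, and Abca1 lies below it.

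A further list of 53 sterol genes covered transport, hydrolysis, cofactors and regulators. Of its 46 tested genes 15 rose and 12 fell, which is 32.6% and 26.1%, close to the 30.5% and 29.2% of all genes, and the median was 0.04. Without knockout replicate 2, 18 rose and 15 fell. Calls over all genes went up as well, from 3646 to 4350 higher and from 3490 to 4236 lower. Lpin1, a phosphatidate phosphatase, rose by 0.88 ± 0.0847 and Tmem97, a sterol-responsive membrane protein, by 0.72 ± 0.0845 on the log2 scale. Gramd1b, a carrier of cholesterol from the plasma membrane to the endoplasmic reticulum, averaged 30.5 ± 4.11 CPM in knockout and 89.4 ± 3.84 CPM in wild type, a fall of 1.55 on the log2 scale (SE 0.0953, adjusted p = 2.2e-06). Nceh1, which hydrolyses cholesteryl esters, fell by 0.95 (SE 0.0605) and Spring1, a factor needed for SREBP cleavage, by 0.90 (SE 0.135). Pltp, a phospholipid transfer protein and LXR target named after its values were seen, had 3, 3 and 2 counts in knockout, against 108, 86 and 80 counts in wild type (log2 fold change −5.12 ± 0.297, adjusted p = 1.61e-06). Its mean lay under the 5 CPM used to pick the named genes. Other LXR targets of this list did not move alike. Arl4c rose by 0.43 on the log2 scale (SE 0.0543), and Apoe fell by 0.58 (SE 0.114).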

How the data were processed

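Polyadenylated RNA of 6 libraries was prepared with a stranded kit, per the labels' protocols. The authors deposited a table of raw read counts per gene and a table of FPKM values for the same genes and libraries. The submitters' processing notes name build GRCm39 and the tools HISAT2, HTSeq, Cufflinks, DESeq and Trimmomatic. Their versions, the annotation release and the strand setting were not stated there. The deposited FPKM equal counts over the library total and a fixed length per gene within 8.04e-05%.

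Genes were kept with filterByExpr (11972 of 16000; 31 of the 33 members), scaled by TMM and tested with edgeR 4.0.16 (R 4.3.3), quasi-likelihood, with the group as the sole term and Benjamini-Hochberg adjustment over all genes. The standard error is the size of the log2 fold change over the square root of F. The fit was also run on simulated counts, with the same spread for every gene and no deviating library. That run does not cover a library like knockout replicate 2. Alternatives were DESeq2 1.42.0, its size factors, no filter, a replicate block and leaving out each library.

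Members and lists were chosen with earlier results of these data known. Named in full were control, LXR, efflux, movement and storage genes, enzymes changed at least 2-fold, lower or not called, and of the further list the 3 largest rises and falls at 5 CPM or more, of which 1 rise is not reported here. The limit that a count of 0 allows (3 counts of a library) covers counting error only, and PCR copies are not independent molecules. INSIG protein sequences were not used here.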

Additional observations from a re-analysis of the deposited data

How the results depend on the processing

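Of the 31 tested members and the targeted gene, none changed direction, and none changed its side of the threshold with DESeq2, with DESeq2's size factors, without the filter or with a replicate block. Without 1 library, 3 members did: Hsd17b7 (0.22) and Mbtps1 (−0.09) passed without knockout replicate 2, and Srebf2 did not pass without knockout replicate 3 or without wild-type replicate 1 (0.19 in each). SREBP control genes called higher therefore numbered 1 to 2 and those called lower 1 to 2 over the fits that leave out 1 library. The cause was not tested. With knockout replicate 2 left out, 18 synthesis genes were called higher and 1 lower, and over all genes 4350 were called higher and 4236 lower, against 3646 and 3490 with all libraries.

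The replicate numbers are shared between groups, but same-numbered libraries did not deviate together: the correlations of their deviations from the group means were −0.0725, −0.0938 and 0.0221 for replicates 1, 2 and 3. With the replicate block 3371 genes were called higher and 3321 lower, and among the synthesis genes 17 and 1. The 3 libraries of a group limit the precision of small changes such as that of Srebf2.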
